A study of Bubalus bubalis with 6 samples.

Results

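Complement is a set of secreted and membrane proteins that marks cells and particles for removal. The classical pathway starts with the C1 complex, whose proteases cleave C4 and C2 to form an enzyme that splits C3. The lectin pathway reaches the same enzyme through the MASP proteases, the alternative pathway amplifies C3 cleavage, and the terminal components C5 to C9 assemble into a membrane pore. Liver makes most plasma complement, and fibroblasts, muscle cells and macrophages are also known to express several of its genes. The complement components and regulators described here are C3, C1S, C2, C7, CFI and SERPING1, which are 6 of the 24616 genes in the table. They were taken by symbol from a list of 9 names, chosen by their raw counts in the growth and differentiation samples compared below. The other 3 names, C1R, CFB and CFD, were not listed by symbol in the table and were not analysed here.

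The samples were muscle stem cells (MuSCs) of the water buffalo, Bubalus bubalis. They were primary cells released by enzymes from longissimus muscle of the fetus, and no genetic change or added agent was described for either group. In 3 samples the cells were proliferating in growth medium (GM), which was high-glucose DMEM with fetal bovine serum and antibiotics. In the other 3 they were differentiating in differentiation medium (DM), which was DMEM with horse serum at a lower concentration. The kind and amount of serum thus differed between the groups together with the differentiation state. Per the methods, the medium was switched when the cells were nearly confluent. The labels number the samples of each group but do not say whether they came from separate cultures or animals, so p-values measure only the spread between these samples. RNA with a polyA tail was sequenced, and the counts assigned to genes added up to between 35615864 and 40305237 per sample. The genes carry cattle identifiers and the positions given below are those of the table, which names no genome build.

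The labelled cell state was checked on 10 measured muscle genes, of which 5 were called higher in DM and 1 lower, against 15.0% called higher and 10.3% called lower over all genes tested (edgeR, with limits given below). MYOG, a transcription factor of muscle differentiation, had 2170, 1662 and 2524 counts in GM and 5446, 6755 and 5743 in DM. CKM, the muscle creatine kinase, rose with a log2 fold change of 6.32 ± 0.22 (SE, adjusted p = 6.82e-09, edgeR). TNNT1 rose by 4.41 on the log2 scale, and MYOD1 at 0.90 was not called. Named after their values were seen, MYF5 was the lower call at -2.70 and PAX7 was not called at -0.92. Nor were CDH15 at -0.53 and DES at -0.15. MYOD1, PAX7 and CDH15 missed a call only by the fold limit, with adjusted p-values of 0.0020, 0.0023 and 3.3e-05 (edgeR). DES had an adjusted p of 0.217 (edgeR). Transcripts of fibroblast genes were also present in each sample, with values given further below. In these bulk samples, a change in the number of cells that express a gene and a change in RNA per cell cannot be told apart.

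All 6 complement genes had more counts in every DM sample than in any GM sample. The sizes ranged from a log2 fold change of 1.85 for CFI to 9.84 for C3. Because the genes were selected on these same values, the changes are a description and carry no test. Over all genes with at least 10 counts in total, edgeR's quasi-likelihood test called 3936 of 15576 at an adjusted p under 0.05 and an absolute log2 fold change above 1, which is 25.3%. Of all genes tested, 15.0% were called higher in DM and 10.3% were called lower. Every DM sample lay above every GM sample for 34.5% of all genes tested. Together the 6 genes had a summed level of 13.7 to 15.8 CPM, read counts scaled to a common library size, in GM and of 827 to 1214 CPM in DM. The median log2 fold change was 7.51 over the 6 genes and 0.03 over all genes tested.

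**Figure D1:**
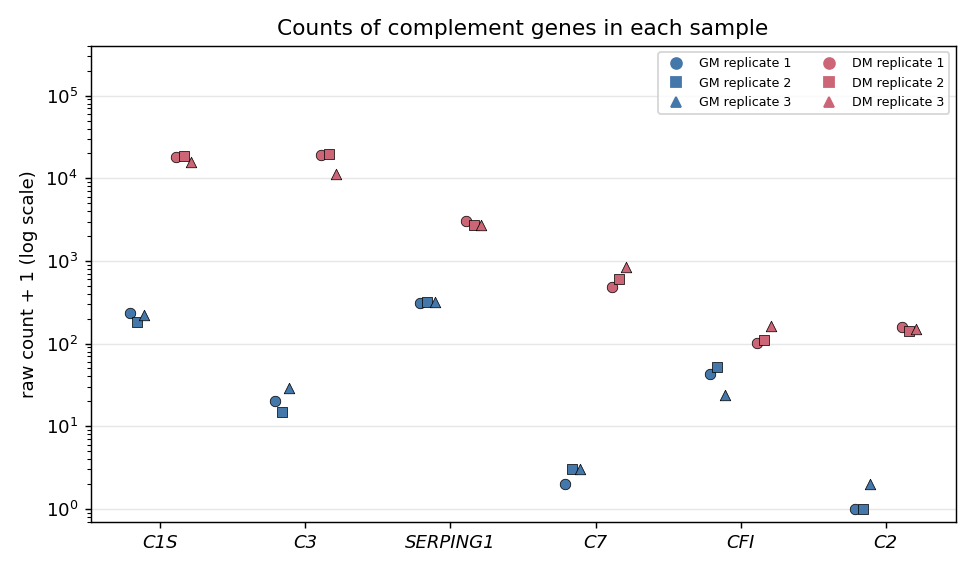
Raw count plus 1 on a log axis for the 6 complement genes, with 1 symbol per sample (blue, GM; red, DM). The red symbols lie above the blue symbols for every gene, with C2 and C7 at 0 to 2 counts in GM and C3 lowest of the DM samples in replicate 3.

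C3 is the central component on which all activation routes converge. Its row (ENSBTAG00000017280, chr7:18989689-19025591, plus strand) had 19, 14 and 28 counts in GM replicates 1 to 3 and 19105, 19558 and 11130 in DM replicates 1 to 3. DM replicate 3 was the lowest of its group but was still far above each GM sample. The level was 0.51 ± 0.21 CPM in GM and 467 ± 145 CPM in DM (SD, n = 3), a log2 fold change of 9.84 ± 0.33 (SE). With each sample left out in turn, the log2 fold change of C3 ran from 9.61 to 10.19.

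C1S and C2 belong to the classical pathway. C1S, the protease of the C1 complex that cleaves C4 and C2 (ENSBTAG00000004840, chr5:103768066-103779250, minus strand), had 235, 183 and 222 counts in GM and 18138, 18392 and 15605 in DM. The groups were far apart and the samples within each were close, at 5.31 ± 0.79 CPM in GM and 487 ± 59.2 CPM in DM (SD, n = 3). The log2 fold change of C1S was 6.52 ± 0.14 (SE).

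C2 supplies the catalytic subunit of the classical C3 convertase (ENSBTAG00000007450, chr23:27231725-27243367, minus strand). It had 0, 0 and 1 counts in GM and 156, 141 and 151 in DM. The GM samples were at the edge of detection, since 3 counts, the limit that a count of 0 allows, corresponded to between 0.0721 and 0.0888 CPM per sample. The DM level of C2 was 4.18 ± 0.39 CPM (SD, n = 3). The ratio of the summed counts per depth was 505, with a 95% interval from 90.1 to 19983 that covers counting error only. The fitted log2 fold change of C2 was 8.50 ± 0.49, with the SE derived from the F statistic of the test. This SE is smaller than the counting interval above implies and understates the uncertainty. The fold change depends on how the single GM count is handled. It was 8.88 with DESeq2, and it ran from 8.03 to 10.32 with single samples left out, the highest value being the one without GM replicate 3, which held that count.

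C7 is a terminal component that anchors the forming pore in the membrane. Its row (ENSBTAG00000011766, chr20:33549495-33606517, minus strand) had 1, 2 and 2 counts in GM and 487, 601 and 835 in DM. Here DM replicate 3 was the highest of its group, in contrast to C3. The level rose from 0.042 ± 0.015 CPM to 17.8 ± 4.25 CPM (SD, n = 3), and the ratio of summed counts per depth was 433, with a 95% interval for counting error from 185 to 1336. The log2 fold change of C7 was 8.64 ± 0.32 (SE), and this SE too is smaller than the counting interval implies.

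SERPING1 and CFI encode soluble inhibitors. SERPING1, the C1 inhibitor that blocks the C1 and MASP proteases (ENSBTAG00000016267, chr15:82159474-82172143, plus strand), had 313, 318 and 322 counts in GM and 3020, 2729 and 2703 in DM. It varied least between GM samples, with an SD of 6.59% of its mean. Its level was 7.89 ± 0.52 CPM in GM and 79.0 ± 9.04 CPM in DM (SD, n = 3), and its log2 fold change was 3.32 ± 0.10 (SE).

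CFI, the protease that inactivates C3b and C4b, differed least between the groups. Its row (ENSBTAG00000034501, chr6:16765034-16815352, plus strand) had 42, 51 and 23 counts in GM and 101, 108 and 163 in DM. The groups did not overlap, but the gap between the highest GM sample and the lowest DM sample was the narrowest of the 6 genes. The level of CFI was 0.95 ± 0.31 CPM in GM and 3.45 ± 0.83 CPM in DM (SD, n = 3), with a log2 fold change of 1.85 ± 0.30 (SE).

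No interval of the 6 genes overlapped that of another gene in the table. The transcript table listed 7 transcripts of them, and 6 of the 7 carried exactly the counts of their gene. C2 alone had a pair of transcripts, and the second had 155, 137 and 147 counts in DM against 156, 141 and 151 for the whole gene. Nearly all counts of C2 were thus entered under both transcripts, and no change of isoform could be read from them.

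Levels between genes were compared per length, as the RPKM given by the authors, which are reads per kilobase of gene scaled for sequencing depth. In GM the order of the mean levels was SERPING1, C1S, CFI, C3, C7 and C2. SERPING1 was at 5.07 ± 0.33 RPKM (SD, n = 3), C1S at 1.96 ± 0.30, CFI at 0.47 ± 0.15 and C3 at 0.10 ± 0.04. In GM, the samples of neighbours in this order overlapped for C7 and C2 only. In DM the order was C1S, C3, SERPING1, C7, CFI and C2. C1S was then at 168 ± 19.3 RPKM (SD, n = 3), C3 at 89.4 ± 27.4, SERPING1 at 47.4 ± 4.64 and C7 at 4.72 ± 1.15. CFI at 1.59 ± 0.39 RPKM and C2 at 1.51 ± 0.11 RPKM overlapped in DM, and no other neighbours did. Ranked by mean RPKM among all genes, C1S stood at place 10883 in GM and 462 in DM, and C3 at 14351 and 907.

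**Figure D2:**
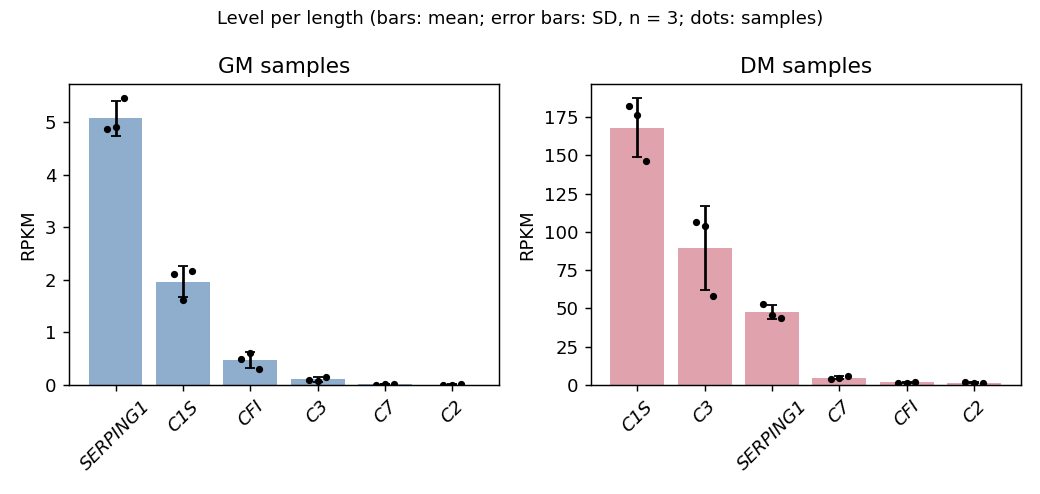
Mean RPKM of the 6 complement genes in GM (left) and DM (right), ordered by level, with SD bars (n = 3) and 1 dot per sample; the axes of the panels differ. SERPING1 is highest in GM at 5.07 RPKM, and C1S is highest in DM at 168 RPKM.

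The balance between proteases or components and their inhibitors, as a ratio of RPKM within each sample, also differed between the groups. C1S to its inhibitor SERPING1 was 0.432, 0.331 and 0.397 in GM replicates 1 to 3 and 3.45, 3.88 and 3.32 in DM replicates 1 to 3. The transcript of the inhibitor was therefore the more abundant in each GM sample and that of the protease in each DM sample. C3 to CFI was 0.188, 0.114 and 0.506 in GM and 78.7, 75.3 and 28.4 in DM. C3 to C1S was 0.0448, 0.0424 and 0.0700 in GM and 0.584, 0.590 and 0.396 in DM, so the transcript of C1S stayed above that of C3 in each sample. These ratios are of RNA and rest on the same counts by which the genes were chosen.

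The rest of the complement system was followed with 54 further names, arranged in 7 lists by role. The table listed 39 of them, and 21 had at least 10 counts. Of these 21, 10 were called higher in DM, 1 was called lower and 10 were not called, against 15.0% higher and 10.3% lower over all genes tested. Their median log2 fold change was 1.65. None had a log2 fold change as large as those of C3, C7, C2 or C1S. The calls fall into 6 genes with at least 29 counts in every sample and 5 with few counts, which are given separately.

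**Figure D3:**
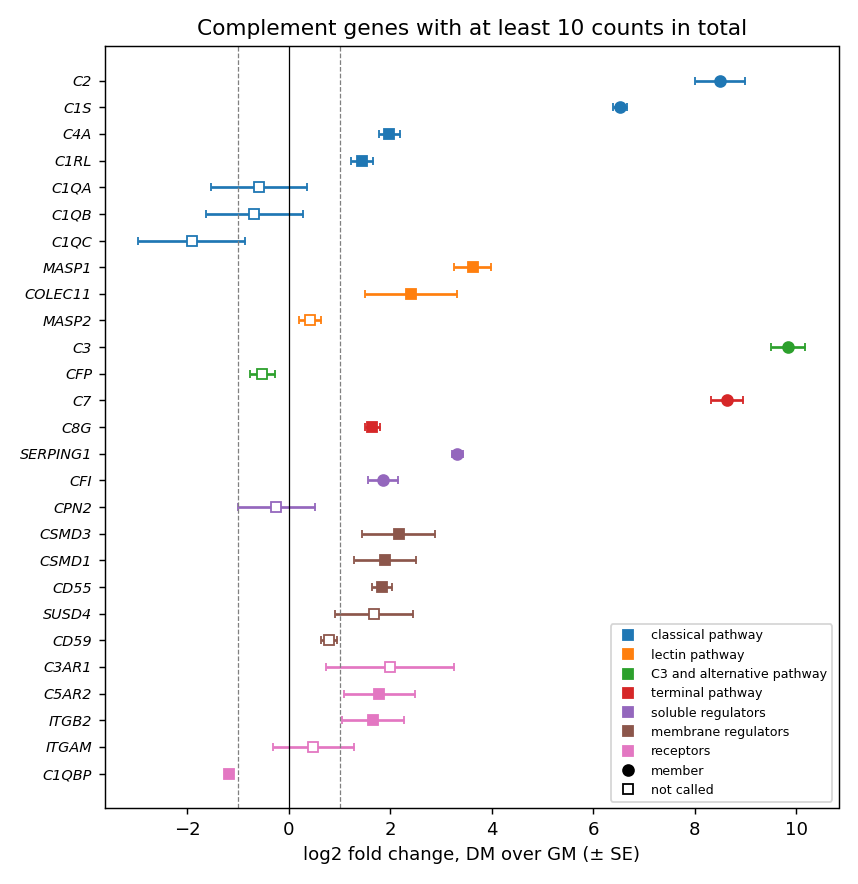
Log2 fold change of DM over GM with its SE for the 27 complement genes that had at least 10 counts, colored by role; circles are the 6 selected genes, filled squares genes called by edgeR and open squares genes not called. Dashed lines mark a log2 fold change of 1 in each direction, and C1QBP is the called gene on the left.

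In the classical pathway, C4A and C1RL rose. C4A, the component that C1S cleaves, had 119, 133 and 81 counts in GM and 441, 412 and 305 in DM, a log2 fold change of 1.98 ± 0.21 (SE, adjusted p = 1.17e-05, edgeR). C4 genes often have near-identical copies, and C4B was not listed by symbol, so the count of C4A may be shared. C3 rose further than C4A, and their ratio of RPKM was 0.175, 0.115 and 0.378 in GM and 47.4, 51.9 and 39.9 in DM. C1RL, which encodes a protein related to C1r, rose by a log2 fold change of 1.44 ± 0.22 (SE, adjusted p = 0.00017, edgeR). The chains of C1q, the part of C1 that recognizes targets, remained low. C1QA had 1 to 3 counts per sample, C1QB 1 to 14 and C1QC 0 to 7, and none of them was called.

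In the lectin pathway, MASP1 was the gene with the largest called change among the 21. It encodes a protease that starts lectin activation, and it had 29, 36 and 60 counts in GM and 598, 496 and 273 in DM. As for C3, DM replicate 3 was the lowest of its group. The log2 fold change of MASP1 was 3.62 ± 0.36 (SE, adjusted p = 8.32e-06, edgeR). MASP2, the lectin protease that cleaves C4 and C2, had 95 to 135 counts in GM and 104 to 157 in DM and was not called, with a log2 fold change of 0.42 ± 0.22. Its interval overlaps that of TARDBP on the opposite strand, and the strand setting of the counting is not given in the sources used here. The lectin MBL2 had 0 counts in all samples, and COLEC10 had at most 2.

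Of the alternative pathway, only properdin remained beside C3, since CFB and CFD were not listed by symbol. CFP, which encodes properdin, had 59, 68 and 67 counts in GM and 39, 42 and 39 in DM. Its DM samples lay below its GM samples, but with a log2 fold change of -0.52 ± 0.25 it was not called (adjusted p = 0.0883, edgeR).

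Of the terminal components beside C7, only C8G was measured. C8G, the lipocalin chain of C8, had 165, 184 and 179 counts in GM and 426, 446 and 601 in DM, a log2 fold change of 1.65 ± 0.15 (SE, adjusted p = 3.56e-06, edgeR). The genes C5, C8A and C8B had 0 counts in all 6 samples, and C6 and C9 had at most 2 and 1. C9, the chain that forms most of the pore, and the alpha and beta chains of C8 were thus at or under the limit of 3 counts, in DM as in GM, while C7 reached 835 counts.

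Of the soluble regulators beside SERPING1 and CFI, none was called. C4BPA, C4BPB and CFHR5 had 0 counts in all samples, and VTN, CPN1 and CPB2 had at most 3.

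Among the membrane regulators, CD55 rose. CD55, also called decay-accelerating factor, takes apart the C3 convertases on the surface of a cell, and it had 79, 79 and 74 counts in GM and 236, 306 and 195 in DM. The log2 fold change of CD55 was 1.84 ± 0.20 (SE, adjusted p = 1.52e-05, edgeR). CD59, which blocks the terminal pore, had 196, 196 and 170 counts in GM and 296, 320 and 240 in DM. Its DM samples were above its GM samples, with an adjusted p of 0.00124 by edgeR, but its log2 fold change of 0.78 ± 0.16 was below the limit of 1, so it was not called. CSMD2 had at most 3 counts in any sample.

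One gene was called lower. C1QBP, which encodes a C1q-binding protein found largely in mitochondria, had 6419, 7054 and 6156 counts in GM and 2324, 2661 and 2681 in DM. It fell by 1.19 on the log2 scale, with an SE of 0.06 (adjusted p = 7.75e-08, edgeR). Per length, it was the most abundant of the measured complement genes in GM, at 141 RPKM. Among the receptors for complement fragments, C5AR1 had at most 2 counts and C3AR1 at most 5.

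The other 5 calls rested on few counts. COLEC11, a lectin, had 0 to 8 counts in GM and 6 to 20 in DM, with a log2 fold change of 2.41 ± 0.90 (SE). CSMD3 and CSMD1, which encode large membrane proteins with complement control domains, had 1 to 6 counts in GM and 5 to 16 in DM. C5AR2, a receptor for C5a, had 2 to 16 counts in GM and 14 to 42 in DM. ITGB2, the beta chain of the complement receptors of leukocytes, had 3 to 10 counts in GM and 9 to 28 in DM. The adjusted p-values of the 5 ran from 0.0186 to 0.047 (edgeR), and each call was lost in at least 1 fit with a sample left out. The number called among the 21 genes was 7 without GM replicate 1 or DM replicate 1. CSMD1 and CSMD3 also each overlap a row on the same strand that has no symbol.

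Cytokine signals such as interferon gamma, interleukin 6, interleukin 1 and TNF are known to induce complement genes in many cells. A list of 35 genes of these cytokines, their receptors and their transcription factors had 31 in the table and 28 tested. Of the 28, 6 were called higher in DM and 1 was called lower, so 25.0% were called in either direction, close to the 25.3% of all genes tested. Their median was 0.43 on the log2 scale. IRF1, a transcription factor induced by interferon, rose most of the 28. It had 106, 114 and 107 counts in GM and 978, 918 and 1272 in DM, a log2 fold change of 3.44 ± 0.14 (SE, adjusted p = 1.37e-08, edgeR). REL, a subunit of NF-kB, was called on 0, 2 and 0 counts in GM and 2, 10 and 4 in DM. Named after their values were seen, the other calls were RELB with a log2 fold change of 1.84, NFKBIA with 1.12, IRF9 with 1.10, STAT2 with 1.02 and IL1A with -1.99. The cytokines themselves were near 0 or low. IFNG had 0 counts in all samples, IL1B and TNF had at most 1, and IL6 had 12 to 24 counts in GM and 5 to 11 in DM. Whether any of these genes had a part in the complement values was not tested.

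Markers of other cell types were read beside the complement genes, in 7 lists with 62 listed genes. Of the 52 tested, 20 were called higher and 5 lower, beside 15.0% and 10.3% of all genes tested, so the count of lower calls was close to the background. The fibroblast markers summed to 37858 to 38950 CPM in GM and to 102132 to 128498 CPM in DM. Collagen genes, named after their values were seen, made up most of this sum. COL1A1, COL1A2 and COL3A1 had means of 15287, 10729 and 8298 CPM in GM and 44328, 23420 and 39251 CPM in DM. Of 11 fibroblast markers tested, 7 were called higher and none lower, beside the same 15.0% and 10.3% over all genes. DCN, which encodes the matrix proteoglycan decorin, had a log2 fold change of 2.37 ± 0.16 (SE, adjusted p = 5.21e-07, edgeR). PI16 was called on 1 to 17 counts, and the receptor PDGFRA was not called, with a log2 fold change of 0.58 ± 0.13. The fibroblast sum and the summed complement level were thus both higher in DM, by different sizes, and its part in the complement values was not tested. Muscle markers also summed to more in DM, at 5765 to 8026 CPM against 2899 to 3452 CPM in GM.

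Macrophages and hepatocytes are known sources of complement. The 10 macrophage markers summed to 6.86 to 9.43 CPM in GM and 8.03 to 16.3 CPM in DM, so the groups overlapped. PTPRC, the leukocyte marker CD45, had at most 2 counts in any sample. CD68 fell by 1.04 on the log2 scale, and CD14 and MRC1 were called higher, with log2 fold changes of 2.75 and 3.25. MRC1 had 1 to 3 counts in GM and 6 to 30 in DM. The 8 hepatocyte markers summed to 1.11 to 1.23 CPM in GM and 1.76 to 3.06 CPM in DM. HNF4A, TTR and AHSG had 0 counts in all samples, while ALB had 9 to 15 counts in GM and 30 to 70 in DM and FGB 2 to 4 and 7 to 17, and both were called higher. The part of either cell type in the complement values was not tested.

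Adipocyte markers summed to 6.94 to 8.34 CPM in GM and 7.27 to 8.84 CPM in DM, which overlap. PPARG fell by 3.73 on the log2 scale, FABP4 was called higher on 0 to 16 counts, and ADIPOQ and PLIN1 were not called. CIDEC, named after its values were seen, was also called higher, with 108, 140 and 77 counts in GM and 237, 204 and 271 in DM. Endothelial markers summed to 13.4 to 15.5 CPM in GM and 14.1 to 24.3 CPM in DM. CDH5 was called lower and TEK higher, and PECAM1 had at most 8 counts. VWF, named after its values were seen, was also called lower, with a log2 fold change of -1.41. Pericyte and smooth muscle markers summed to 1311 to 1515 CPM in GM and 1611 to 1973 CPM in DM. PDGFRB was the called gene of the 7, with a log2 fold change of 1.78, while RGS5 had at most 4 counts and MYH11 was not called.

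**Figure D4:**
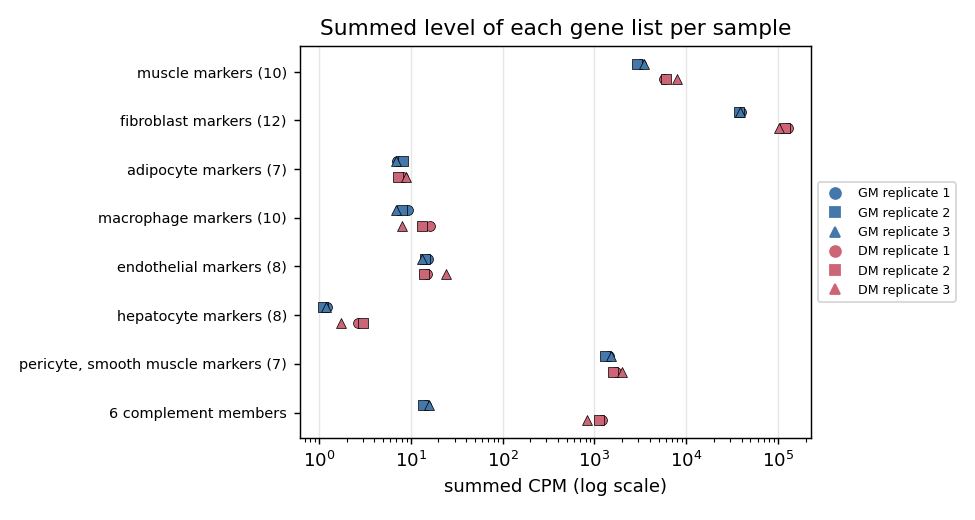
Summed CPM on a log axis for 7 marker lists (number of listed genes in brackets) and for the 6 complement genes, with 1 symbol per sample (blue, GM; red, DM). The complement sum moves from 13.7 to 15.8 CPM to 827 to 1214 CPM, while the macrophage and hepatocyte sums stay at or below 16.3 CPM.

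The DM samples did not vary together over the complement genes. In DM replicate 3, relative to the mean CPM of DM replicates 1 and 2, C3 was lower by a log2 ratio of -0.87 and C1S by one of -0.30. SERPING1 at -0.17 and C2 at -0.05 were close to the other samples. C7 at 0.55 and CFI at 0.57 were higher in that sample. In the same sample and on the same scale, the muscle sum was at 0.44, the fibroblast sum at -0.27 and the macrophage sum at -0.88. The hepatocyte sum was at -0.70, the endothelial sum at 0.74, the adipocyte sum at 0.20 and the pericyte and smooth muscle sum at 0.24. The macrophage, hepatocyte, adipocyte and endothelial sums rest on low levels, at most 24.3 CPM in any sample. The fibroblast sum was mostly collagen, and its markers differed. DCN was at 2734, 2584 and 1614 CPM in DM replicates 1 to 3. DPT, named after its values were seen, was at 285, 273 and 327 CPM. These are differences within 1 group of 3 samples, they were not tested, and their relation to one another was not tested either.

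**Figure D5:**
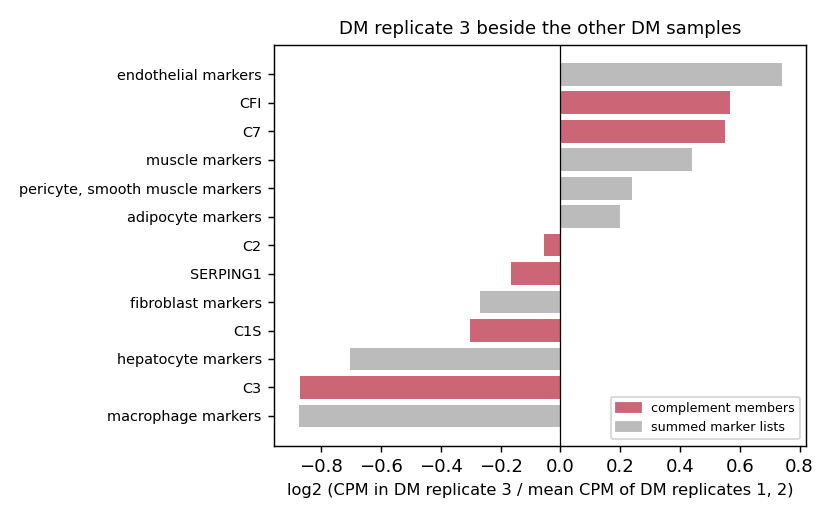
Log2 ratio of the CPM in DM replicate 3 to the mean of DM replicates 1 and 2, for the 6 complement genes (red) and 7 summed marker lists (grey). C3 is at -0.87, whereas C7 and CFI are at 0.55 and 0.57.

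The genes with a pattern most like C3 were sought among the 12459 tested genes whose mean level reached 1 CPM. Likeness was the root mean square distance between log2 CPM values over the 6 samples, each gene centred on its own mean. The 5 nearest genes all carried an identifier without a symbol. In order they were ENSBTAG00000010433 at a distance of 0.384, ENSBTAG00000022396 at 0.469, ENSBTAG00000006354 at 0.768, ENSBTAG00000046158 at 0.829 and ENSBTAG00000007090 at 1.01. Of the other selected complement genes, C7 was at place 7, C1S at 19, C2 at 26, SERPING1 at 221 and CFI at 746. A large difference between the groups weighs most in this distance, and the genes were chosen on that same difference. Their places are therefore a description and carry no test. Nearest to C3 among the rows with a symbol, apart from C7, were XPNPEP2, ISLR2, LCN2 and MYBPC1, which were looked up after the nearest rows had been seen. XPNPEP2, an aminopeptidase, had 8, 10 and 7 counts in GM and 1993, 2148 and 2041 in DM. LCN2, a secreted lipocalin of the acute phase, had 6, 3 and 2 counts in GM and 1209, 944 and 447 in DM, again lowest of the DM samples in replicate 3. MYBPC1, a myosin-binding protein of muscle fibers, had 3, 6 and 5 counts in GM and 817, 1037 and 766 in DM.

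The nearest listed gene on each side of the 6 complement genes was also examined, a step added after the data had been seen. Of these 12 neighbours, 5 were called higher in DM, none lower, 4 were not called and 3 had too few counts, where 15.0% of all genes tested were called higher and 10.3% lower. Next to C2, the row ENSBTAG00000046158 (chr23:27225270-27231292, minus strand) lies 433 bases away on the same strand. It had 9, 14 and 6 counts in GM and 3776, 3928 and 4123 in DM, a log2 fold change of 8.83 ± 0.14 (SE, adjusted p = 5.82e-11, edgeR). Its DM counts were far above those of C2 itself, which ran from 141 to 156. Next to C1S, the row ENSBTAG00000008612 (chr5:103737161-103747996, plus strand) had 78, 89 and 120 counts in GM and 10833, 9813 and 8255 in DM, with a log2 fold change of 6.83 ± 0.19 (SE, adjusted p = 2.02e-09, edgeR). Among protein-coding genes in the RefSeq annotation of the buffalo assembly NDDB_SH_1, C2 lies between ZBTB12 and CFB, and C1S between LPCAT3 and C1R. In the positions used here, ZBTB12 and LPCAT3 lie on the opposite side of C2 and C1S from these rows. No identifier links that annotation to the cattle identifiers used here, so both rows were left without a name.

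The remaining neighbours had smaller changes. UBE2L6 beside SERPING1, an enzyme that attaches the interferon-induced modifier ISG15, had a log2 fold change of 2.95 ± 0.20 (SE, adjusted p = 4.13e-07, edgeR). CARD6 beside C7 had a log2 fold change of 1.44 and PLA2G12A beside CFI one of 1.18. GPR108, the tested neighbour of C3, had a log2 fold change of 0.36, and ZBTB12 on the other side of C2 had 0.25, and neither was called. LPCAT3 on the other side of C1S and GAR1 beside CFI were just under the fold limit in opposite directions.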

How the data were processed

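PolyA RNA of 3 GM and 3 DM samples was measured. The deposited tables give raw counts and RPKM per gene and per transcript, with lengths, and 0 sample columns were left without a sample. Per the methods, the authors aligned reads with HISAT2 to a buffalo assembly and computed RPKM from counts and length; the supplementary methods cite HTSeq beside the expression levels but do not state the counting tool or its settings. The submitters' processing notes instead list Bowtie 0.12.2 and the mouse builds mm8 and mm9, and the tables hold cattle identifiers, so the annotation behind the counts is uncertain, and 6039 genes are listed by identifier only. Depth per sample is given in the report. Tables of the authors' own comparisons hold fold changes, p-values and q-values and were not used.

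Counts of genes with at least 10 in total were normalized by TMM and tested, DM against GM, with edgeR 4.0.16 (quasi-likelihood, Benjamini-Hochberg) in R 4.3.3, where a call required an adjusted p under 0.05 and an absolute log2 fold change above 1, after the study's limits. CPM use TMM library sizes, and log2 CPM a prior count of 2. Each SE is the absolute log2 fold change divided by the square root of the F statistic of the test. It understates the uncertainty where a group has almost no counts. Intervals at 95% cover counting error only. The test was checked on simulated counts. Alternatives were DESeq2 1.42.0 and its size factors, library size alone, other filters, no fold limit, a replicate block and leaving out each sample. The members and lists were chosen with earlier results of these data known. Named genes were the members, all called complement genes and those at 3 counts or fewer, the 2 called genes with the largest change and the defining markers of each other list, and the 5 genes nearest to C3; exceptions are stated. Promoter and protein sequences were not analysed here.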

Additional observations from a re-analysis of the deposited data

How the results depend on the processing

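The log2 fold changes of the 6 complement genes were recomputed under the alternative settings, which gave 74 values of 1 gene in 1 setting. Of these values, 70 moved by less than the spread between replicates and none changed sign. The 4 that moved were of C2, with 8.88 in DESeq2 and 8.03 to 10.32 with single samples left out. Of the other complement genes tested, 11 were called, against 7 to 10 with single samples left out and 3 when genes had to reach an RPKM of 1 in over 50% of samples. Under that limit C3, C7, CFI and C2 were not tested. It called 4 inducer genes, 15 marker genes and 2197 genes in all, against 7, 25 and 3936. It left 11587 genes tested against 15576, and it drops any gene under 1 RPKM in every sample of a group. Without a fold limit the counts were 19 inducer genes and 9813 genes in all. Same-numbered samples of the groups did not deviate together (correlations -0.0076, -0.022 and -0.010), and with the replicate block 10 other complement genes were called and the log2 fold change of C3 was 9.82. With library size alone the median log2 fold change of all genes was -0.07. The planned checks of promoter motifs and protein sites were not run. Counts of 0 to 2 in GM limit the sizes for C2 and C7.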
